A study of Zea mays with 30 samples.

Results

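The shoot apical meristem (SAM) of maize was searched for transcripts of the genes that write and read DNA methylation, and their level in the narrow sheath (ns) mutant was set against that in nonmutant siblings. A spot was taken when its 1 annotated gene has a symbol or synonym that starts with dmt, mbd, chr, chb, chc or gte followed by digits, or that is met1, zmet1, zmet2 or zmet3. This gave 70 of 49280 spots on 3 cDNA chips, from 12 genes, among 3845 spots with 1 listed gene. The spots belong to 3 DNA methyltransferase genes (12 spots), 8 genes for methyl-CpG-binding domain (MBD) proteins (54 spots) and 1 GTE gene (4 spots). The maize gene table lists 22 genes under the rule, and its 4 chr genes and 2 chb or chc genes, named after chromatin remodeling factors, matched 0 spots. The results therefore concern DNA methylation and a single bromodomain gene, and no spot was listed under a chromatin remodeling ATPase or subunit gene. A further spot of SAM 1.1, which lists met5 together with a second gene, was not counted.

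DNA methylation in plants is placed on cytosines by several enzyme classes. MET1-type methyltransferases copy methylation at CG sites after DNA replication, and chromomethylases, a class found in plants, methylate CHG sites in chromatin that carries histone H3 lysine 9 methylation. MBD proteins share a domain first defined by binding to methylated CG dinucleotides, although not every plant member binds methylated DNA. GTE proteins carry a bromodomain, which recognises acetylated lysines of histones. In a meristem, where cells divide continually, methylation has to be restored at each division.

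The ns mutant carried the alleles ns1-R and ns2-R, and the nonmutant siblings were Ns1/ns1-R and also carried ns2-R, so both groups carried ns2-R and differed at ns1. Seedlings of 1 near-isogenic line that segregates both types were taken 2 weeks after germination, and each replicate was RNA from a pool of laser-microdissected SAMs, amplified by T7 RNA polymerase and hybridised as ns against nonmutant on the same array. Each chip (SAM 1.1, 2.0 or 3.0) had 6 arrays, 3 with ns in Cy5 and 3 with ns in Cy3. The study describes 6 biological replicates in all, but whether a replicate number marks the same RNA on different chips is not given in the sources used here, so the chips were not counted as independent of each other, and in such pooled tissue fewer cells that express a gene and less RNA per cell cannot be told apart.

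Values are log2 ratios of ns over nonmutant from normalised intensities, where 0 is no difference and 1 is a doubling, and the value of a spot is the mean of its 6 arrays with the moderated standard error (SE) of limma. Where a gene is given by chip, its spots were averaged on each array, and the SE is that of the 6 arrays with the dye effect removed, also for a gene with 1 spot. Adjusted p-values are from limma with Benjamini-Hochberg adjustment over all spots of the chip. Signal is given as a multiple of the local background, which the file holds for each spot, as the geometric mean of the 6 arrays without dye normalisation, so it shows how well a spot was measured and not the ratio. The median spot of an array was 3.32 to 62.0 times its background, and arrays of the same dye orientation correlated between -0.12 and 0.54. The knox gene kn1, a marker of the SAM, reached 53.0 times background in nonmutant RNA at its brightest SAM 1.1 spot, with ratios of 0.19, -0.43, -0.64, -0.68, -0.36 and -0.17 there, which averaged -0.35 ± 0.13 (adjusted p = 0.830 by limma). This kn1 spot had the lowest mean of the 18 knox spots, which ranged from -0.35 to 0.14 with a median of -0.085. Over all knox spots, 13 of 18 were lower in ns and 0 passed the adjusted threshold. The 31 spots of leaf photosynthesis genes had 16 higher and 15 lower, and the 14 of leaf primordium genes 7 and 7. The part of these 3 gene lists in the ratios below was not tested. Of the 2 ns1 spots on SAM 3.0 one averaged 0.21 ± 0.085 and the other -0.40 ± 0.25 (adjusted p = 0.879 for both by limma), and since the mutant allele and the paralogue ns2 may give signal there, they do not check the labels.

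The 70 spots differed little between ns and nonmutant SAMs. None passed an adjusted p of 0.05 on any chip, against a background of 0.0104% of all spots on SAM 1.1, 0.0355% on SAM 2.0 and 0.0125% on SAM 3.0. An unadjusted p under 0.05 was found for 0 of 31 spots on SAM 1.1, 1 of 16 on SAM 2.0 and 0 of 23 on SAM 3.0, where the background over all spots was 5.18%, 6.48% and 5.19%. The spots were higher in ns in 36 cases and lower in 34. The lowest spot had a ratio of 0.864 and the highest of 1.34 as a fold. On SAM 1.1 the members' median log2 ratio was -0.010 against -0.017 over all spots. The same medians were 0.036 and 0.0037 on SAM 2.0, and -0.0047 and -0.00097 on SAM 3.0. Array by array, the members' median lay between -0.21 and 0.15 on the first chip, between -0.11 and 0.13 on the second and between -0.036 and 0.050 on the third, so each chip had arrays on both sides of 0.

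At 67 of 70 spots the 95% interval of the ratio, from the moderated fit, lay wholly within a 1.5-fold change in either direction, and the 3 that reached beyond it were all spots of mbd106. Among the 54 spots with every channel at 2 times background or more, this held for 52. The intervals cover the spread of the arrays and not the choice of background correction, and with the deposited log values in place of the normalisation used here the mean of 2 of 70 spots fell outside its interval. The interval held 0 at 69 spots. The SE had a median of 0.13 over the members and ranged from 0.076 to 0.20. On SAM 1.1, 2.0 and 3.0 the members' median SE was 0.131, 0.137 and 0.084, close to the 0.126, 0.139 and 0.086 of all spots. How many of all spots have an interval within 1.5-fold was not counted, so the 67 of 70 cannot be set against such a share. The study points out that RNA of the NS lateral domain is diluted by the rest of the SAM. The intervals therefore concern the whole SAM and set no bound on that domain. At no spot did all 6 arrays point the same way in the measured ratios, which still hold the dye effect. With that effect removed they did at 1 spot, 2459 of mbd115 on SAM 1.1. There ns was lower on all 6 arrays, with a mean of -0.11 ± 0.11 (adjusted p = 0.856 by limma). The share of all spots of the chips that do so was not counted. The dye effect was larger than the ns ratio at 45 of 70 spots, and the share over all spots was not counted. Since the ratio of a single array depends on which RNA carried Cy5, the mean of 3 arrays of each orientation is used. Spots of all 12 genes gave signal above background on average, and signal over background ranged from 1.75 to 72.3 with a median of 14.9. Nearly all spots of the chips did so too. In any channel of an array at most 1.34% of all spots on SAM 1.1, 0.710% on SAM 2.0 and 1.01% on SAM 3.0 were below background. The study gives cross-hybridisation as a drawback of long cDNA spots, so signal at a spot need not come from the listed gene alone. At 2 spots both channels averaged under 2 times background, 16 spots had at least 1 channel of 1 array under it, and 0 member spots were saturated.

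**Figure D1:**
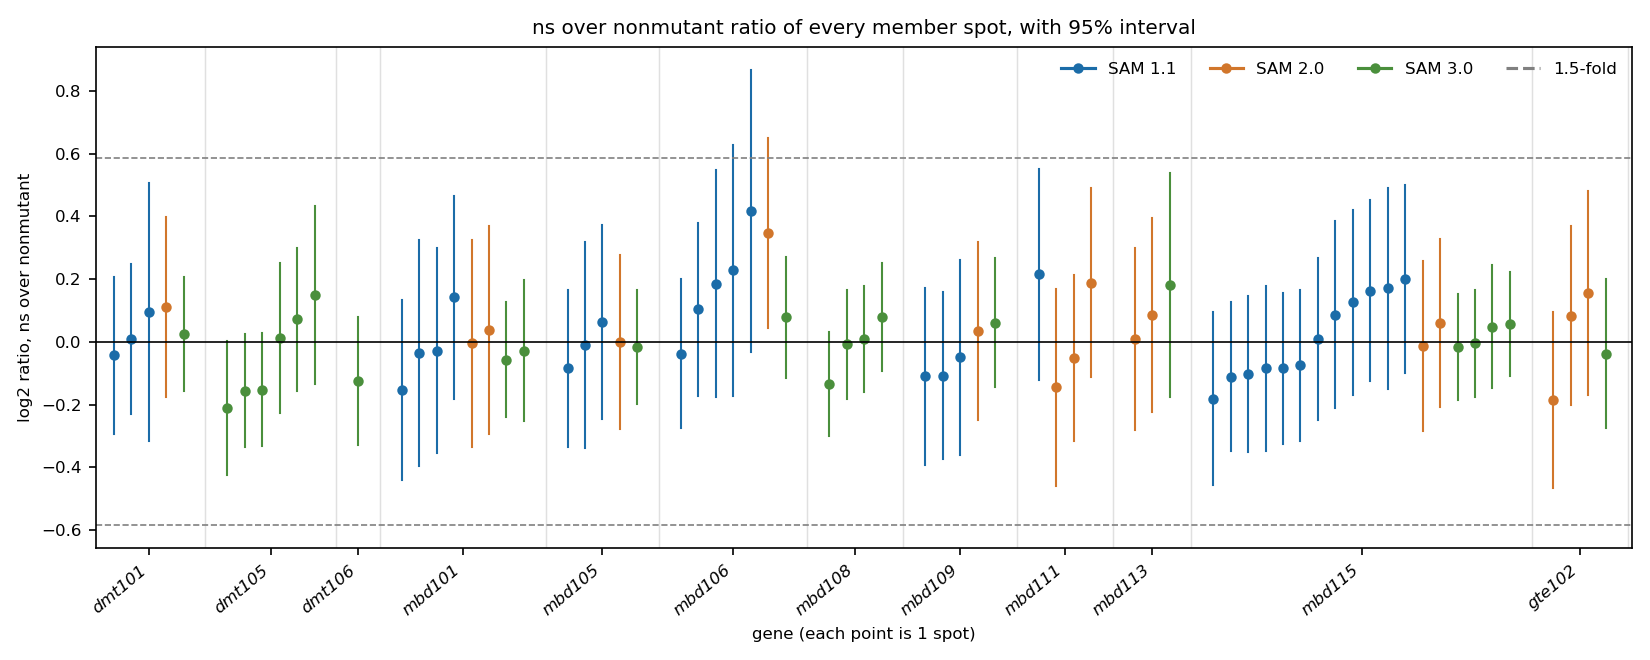
Each point is the mean log2 ratio of ns over nonmutant at 1 of the 70 spots (6 arrays), the bar its 95% interval from limma, and the colour its chip, with spots grouped by gene. All but 1 interval hold 0, and only 3 spots of mbd106 reach past the dashed lines at 1.5-fold.

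**Figure D2:**
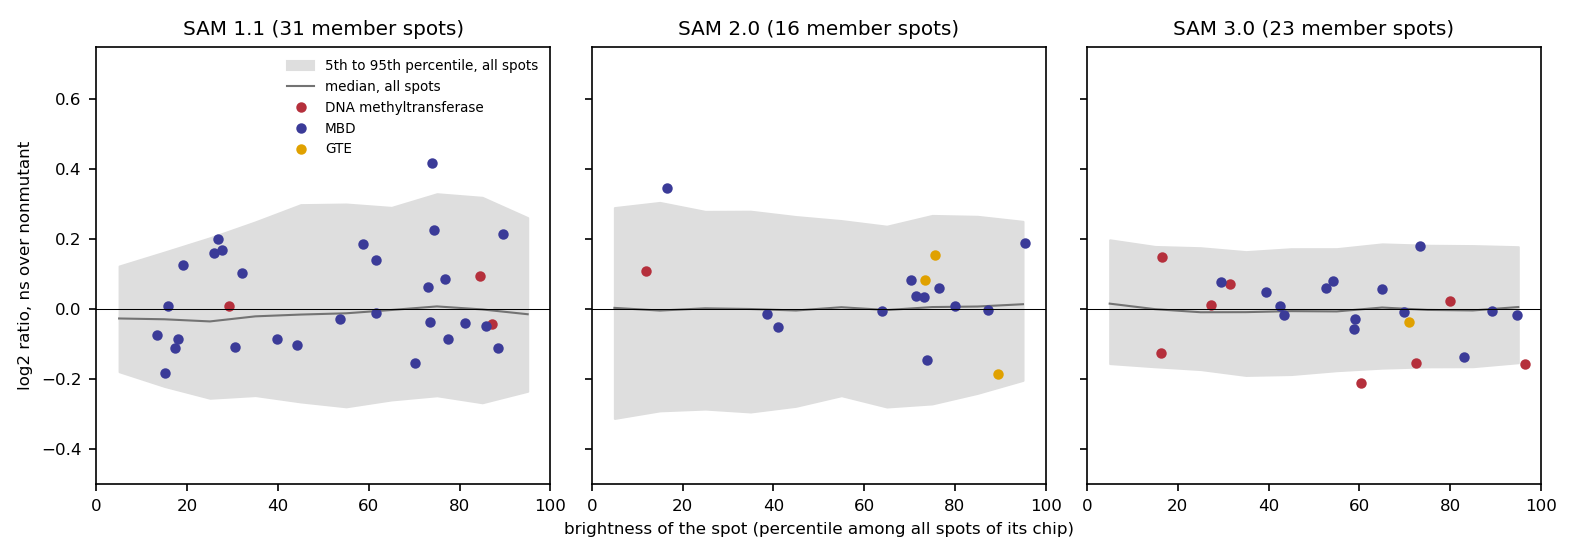
The log2 ratio of ns over nonmutant (y) is plotted against the brightness percentile of the spot within its chip (x) for the 31 member spots of SAM 1.1, the 16 of SAM 2.0 and the 23 of SAM 3.0. The grey band holds the 5th to 95th percentile of all spots in each of 10 brightness classes and the grey line their median, and the members are spread on both sides of that line.

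Among the DNA methyltransferases, dmt101 was measured on all 3 chips. It is listed with the synonyms MET1 and ZMET1 and belongs to the class that maintains CG methylation. Its brightest SAM 1.1 spot, 4654, had a signal of 58.3 times background in ns and 46.8 in nonmutant RNA. The 6 arrays gave log2 ratios of -0.053, 0.031, -0.30, 0.42, -0.28 and -0.077, with a mean of -0.044 ± 0.11 (SE, n = 6; adjusted p = 0.946 by limma). Ns was lower on 4 arrays and higher on 2, by the most on replicate 4.

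A second SAM 1.1 spot of dmt101, 463, varied most. Its arrays gave -0.086, 0.57, 0.72, 0.37, -1.01 and 0.005, so ns was highest on replicate 3 and lowest on replicate 5, and the mean of 0.095 ± 0.19 (adjusted p = 0.925 by limma) is small beside that range. Without replicate 3 it was -0.12, on the other side of 0. The remaining SAM 1.1 spot, 1057, was dimmer, at 4.78 and 3.98 times background, and its arrays gave -0.52, 0.48, -0.28, 0.16, -0.21 and 0.42 with a mean of 0.009 ± 0.11. Here all 3 arrays with ns in Cy5 (replicates 2, 4 and 6) were above 0 and all 3 with ns in Cy3 were below, and the dye effect was 0.35 on the log2 scale.

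On the other chips dmt101 had 1 spot each. The SAM 3.0 spot, 12777, had a signal of 20.3 times background in ns and 24.3 in nonmutant RNA, and the 6 arrays gave -0.036, -0.033, 0.36, -0.21, 0.078 and -0.0077, with a mean of 0.025 ± 0.084 (adjusted p = 0.975 by limma). Its interval of -0.16 to 0.21 is the narrowest for this gene, and corresponds to a ratio between 0.896 and 1.15. The SAM 2.0 spot, 8058, gave 0.061, -0.059, 0.11, 0.056, -0.15 and 0.65 with a mean of 0.11 ± 0.14, but its signal was 1.75 and 1.91 times background and 8 of its 12 channels were under 2 times. Only replicate 6 stood far from 0 there, and the dimness limits what the spot can show. As the mean of its spots, dmt101 had 0.020 ± 0.087, 0.11 ± 0.12 and 0.025 ± 0.076 on the chips in order of their number.

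The gene dmt105, also listed as met5 and Zmet5 and a member of the chromomethylase class, was on SAM 3.0 alone, as 3 cDNAs that are each listed at 2 spots. The cDNA DN207928 is at spots 176 and 4940, DN217114 at 13678 and 3326, and DN219288 at 7135 and 4123, with the brighter spot of each pair given first. The pairs allow the ratio of a cDNA to be compared between spots on the same arrays. At the brighter spots ns was lower than nonmutant on average, and at the dimmer spots it was not, a difference described here after the values were seen and not tested.

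For DN207928 the brighter spot 176 had a signal of 14.0 times background in ns and 14.8 in nonmutant RNA and ratios of 0.13, -0.16, -0.60, -0.38, -0.23 and -0.028. The mean was -0.21 ± 0.098, a ratio of 0.864, with an interval of -0.42 to 0.0035 (adjusted p = 0.879 by limma). This is the lowest value of all 70 spots, with ns lower on 5 of 6 arrays. Without replicate 3 the mean was -0.10. Its dimmer partner 4940, at 7.33 and 5.20 times background, gave -0.19, -0.050, -0.32, 0.27, 0.81 and -0.088 with a mean of 0.072 ± 0.10 (adjusted p = 0.934 by limma). Replicate 5 was the highest there and was below 0 at the partner spot.

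For DN217114 the brighter spot 13678, at 67.6 and 62.6 times background, gave -0.35, -0.025, -0.40, 0.23, -0.21 and -0.19 with a mean of -0.16 ± 0.082 (adjusted p = 0.879 by limma). Ns was lower on 5 of 6 arrays, all but replicate 4. The dimmer spot 3326, at 5.05 and 4.35 times background, gave -0.91, 0.29, -0.56, 0.66, 1.19 and -0.60, with a mean of 0.012 ± 0.11 and a dye effect of 0.70. Its arrays split entirely by dye, the 3 with ns in Cy5 (replicates 2, 4 and 5) above 0 and the 3 with ns in Cy3 below.

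For DN219288 the brighter spot 7135, at 22.1 and 24.2 times background, gave 0.27, -0.21, 0.0033, -0.62, -0.44 and 0.078, with a mean of -0.15 ± 0.082 (adjusted p = 0.879 by limma). Here the 3 arrays with ns in Cy5 were all below 0 and the 3 with ns in Cy3 all above it, with a dye effect of -0.27. The dimmer spot 4123, at 2.25 and 2.41 times background with 3 of 12 channels under 2 times, gave -0.11, 0.41, -0.80, 0.24, 0.98 and 0.19, with a mean of 0.15 ± 0.13 and a dye effect of 0.39. The sign of the dye effect was thus opposite at the 2 spots of this cDNA.

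Averaged over the 3 brighter spots, the arrays of dmt105 gave 0.015, -0.13, -0.33, -0.26, -0.29 and -0.046, with a mean of -0.17 ± 0.058 (SE over 6 arrays with the dye effect removed), a ratio of 0.887. The 3 dimmer spots gave -0.40, 0.22, -0.56, 0.39, 0.99 and -0.17, with a mean of 0.078 ± 0.13. Ns was thus lower on 5 of 6 arrays by the brighter spots and on 3 of 6 by the dimmer ones, and the mean dye effect was -0.053 for the former and 0.45 for the latter. Over all 6 spots the mean was -0.048 ± 0.071. None of the 6 spots passed the test, and the part of dye and brightness in the difference between the pairs was not tested.

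**Figure D3:**
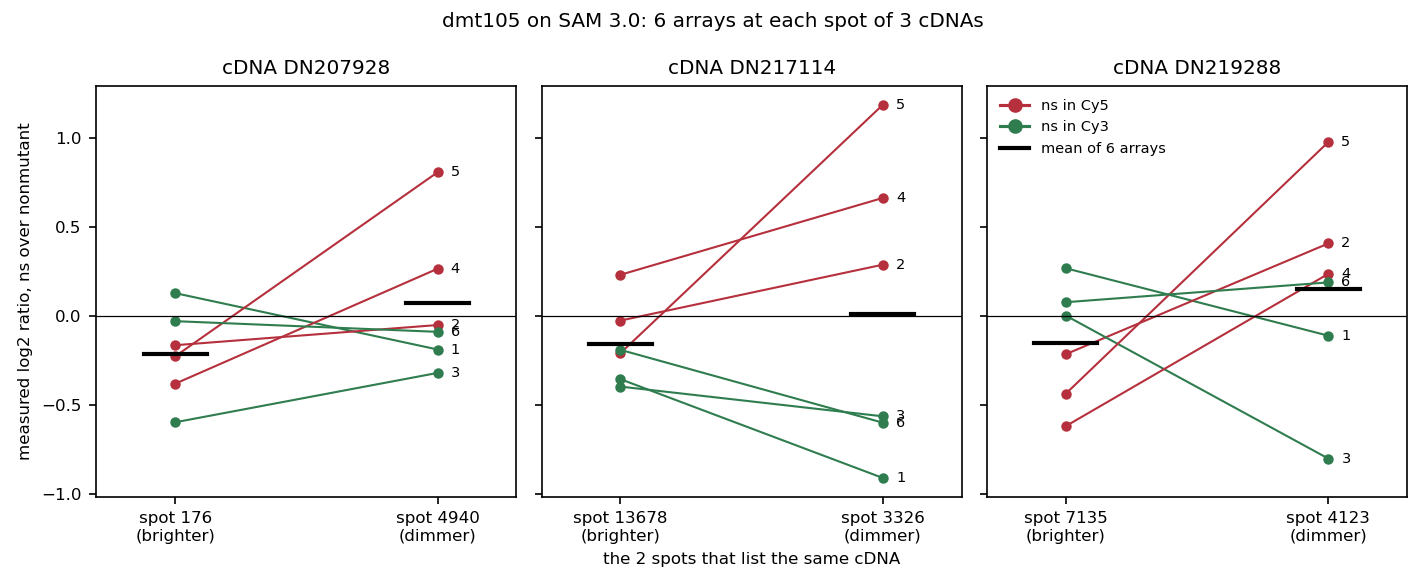
The 6 measured log2 ratios of ns over nonmutant on SAM 3.0 are shown for the 2 spots of each of 3 dmt105 cDNAs, joined by array and numbered by replicate, in red where ns carried Cy5 and green where it carried Cy3, with the mean as a black bar. The brighter spots average -0.21, -0.16 and -0.15, and the dimmer spots 0.072, 0.012 and 0.15 with a wider spread between the dyes.

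The third DNA methyltransferase gene, dmt106, had 1 spot, 8249 on SAM 3.0, with a signal of 3.38 times background in ns and 2.87 in nonmutant RNA. The arrays gave -0.044, -0.22, -0.59, 0.13, 0.15 and -0.18, with a mean of -0.12 ± 0.093 (adjusted p = 0.883 by limma). Ns was lower on 4 of 6 arrays, by most on replicate 3, and the arrays of both groups of dye orientation overlapped.

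The MBD genes made up most of the spots, 27 higher and 27 lower in ns, with a median of 0.0041 and a range of -0.18 to 0.42. Both the highest value of the family and its only spot with an unadjusted p under 0.05 belonged to mbd106. The gene table lists this gene with the further synonym MARCKS. Ns was higher at 6 of its 7 spots, on average over the arrays, but at none of the 7 did the arrays agree in direction.

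The mbd106 spot with the highest ratio of all members was 2960 on SAM 1.1, with a signal of 31.4 times background in ns and 26.9 in nonmutant RNA. The arrays gave 0.098, 1.13, 1.24, 0.48, -0.43 and -0.0089, with a mean of 0.42 ± 0.20, a ratio of 1.34, and an interval of -0.031 to 0.87 (adjusted p = 0.830 by limma). Replicates 2 and 3 were more than doubled while replicates 5 and 6 were below 0. The mean was 0.18 without replicate 3 and 0.27 without replicate 2.

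The spot with an unadjusted p under 0.05 was 341 on SAM 2.0. Its arrays gave 0.90, 0.16, -0.017, 0.045, 0.47 and 0.53, with a mean of 0.35 ± 0.14, a ratio of 1.27, and an interval of 0.045 to 0.65 (adjusted p = 0.732 by limma). Ns was higher on 5 of 6 arrays. The signal was only 1.97 times background in ns and 1.80 in nonmutant RNA, with 6 of 12 channels under 2 times, and with the deposited log values in place of the normalisation used here the mean of the spot was 1.52.

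The other 4 SAM 1.1 spots of mbd106 had means of 0.19, 0.23, 0.10 and -0.039. All 5 SAM 1.1 spots were above 0 on replicate 2 and below 0 on replicate 5. Their mean was -0.33, 0.80, 0.47, 0.38, -0.52 and 0.27 on the 6 arrays, which averages to 0.18 ± 0.17. The 1 SAM 3.0 spot gave -0.18, 0.41, 0.24, 0.073, 0.032 and -0.10, with a mean of 0.079 ± 0.089, 4 of 6 arrays higher. The ranges of the arrays overlapped between the 3 chips.

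A similar spread was seen for mbd111 on SAM 1.1, where its 1 spot gave -0.40, 0.97, 0.52, 0.17, -0.16 and 0.19 with a mean of 0.22 ± 0.19. On SAM 2.0, where mbd111 had 3 spots with means of -0.14, -0.052 and 0.19, their average was -0.0025 ± 0.044 and lay between -0.22 and 0.076 on the arrays. The spots of the second chip are other cDNAs, 1 of them near the SAM 1.1 value and 2 below 0, and the difference between the chips was not tested.

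The lowest MBD spot was 12148 of mbd115 on SAM 1.1, with a signal of 2.86 and 3.26 times background. Its arrays gave -0.25, -0.70, -0.16, -0.096, 0.15 and -0.032, with a mean of -0.18 ± 0.13 (adjusted p = 0.830 by limma). Ns was lower on 5 of 6 arrays, by far the most on replicate 2. The same gene had 11 other spots on that chip, 6 of all 12 being higher and 6 lower, with means up to 0.20.

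With 18 spots, mbd115 was the gene measured most often, and its SAM 1.1 mean had the smallest SE of any gene on any chip. The mean of its 12 SAM 1.1 spots was 0.11, 0.042, -0.064, -0.024, 0.020 and -0.026 on the 6 arrays, which averages to 0.0097 ± 0.027. The 2 spots of SAM 2.0 averaged 0.024 ± 0.060 and the 4 of SAM 3.0 0.021 ± 0.049. The 3 chips gave ratios of 1.01, 1.02 and 1.01, each with arrays on both sides of 0. On SAM 1.1 signal over background of the 12 spots ranged from 2.59 to 45.2 in ns RNA and from 2.42 to 29.5 in nonmutant RNA.

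Both mbd101 and mbd105 had means near 0 on all 3 chips. For mbd101, with 8 spots, the chip means were -0.019 ± 0.15, 0.016 ± 0.19 and -0.042 ± 0.049 in that order of chips, SAM 1.1 first, and its arrays ranged from -0.67 to 0.44, from -0.40 to 0.81 and from -0.41 to 0.30. For mbd105, with 5 spots, they were -0.011 ± 0.098, -0.001 ± 0.097 and -0.016 ± 0.075. Neither gene had a chip on which more than 4 arrays pointed the same way.

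For mbd109 all 3 SAM 1.1 spots were lower in ns, with a mean of -0.089 ± 0.13 over arrays at 0.40, -0.12, -0.23, -0.011, -0.45 and -0.11, where 5 of 6 were below 0. The single spots of SAM 2.0 and SAM 3.0 gave 0.034 ± 0.11 and 0.061 ± 0.10, on the other side of 0. The gene thus had no common direction over the chips. Its spots are from different cDNAs.

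The last MBD genes were mbd108 and mbd113. The 4 spots of mbd108, all on SAM 3.0, had means from -0.14 to 0.080 and together -0.013 ± 0.035. For mbd113 the 2 spots of SAM 2.0 averaged 0.047 ± 0.10, and its 1 spot on SAM 3.0 gave -0.011, -0.050, 0.18, 1.29, -0.31 and -0.014 with a mean of 0.18 ± 0.25. That mean is the highest of the member spots on its chip, but it rests on replicate 4, and 4 of the other 5 arrays were below 0. The signal averaged 19.7 times background in ns and 17.3 in nonmutant RNA, but 2 channels were under 2 times, the lowest at 1.20.

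Most MBD spots were well above their local background. On SAM 1.1 the spots of mbd101 ranged from 12.9 to 29.4 times background in ns and from 11.8 to 30.7 in nonmutant RNA, and those of mbd109 from 5.49 to 63.1 and from 5.49 to 60.4. The SAM 1.1 spots of mbd105 ranged from 9.01 to 27.1 in ns and from 7.86 to 19.3 in nonmutant RNA, and those of mbd106 from 6.01 to 32.5 and from 5.01 to 27.0. Each range runs over different spots of a gene, so the ranges describe signal and do not compare ns with nonmutant. On SAM 3.0 the 4 mbd108 spots had 9.28 to 30.5 in ns and 8.60 to 35.7 in nonmutant RNA, and the 4 mbd115 spots 6.86 to 54.1 and 6.90 to 56.3. The 3 mbd111 spots of SAM 2.0 held the member spot with the highest signal over background, 7152, at 72.3 and 63.9 times background, with ratios of 0.33, 0.71, 0.11, 0.23, -0.55 and 0.30 and a mean of 0.19 ± 0.14 (adjusted p = 0.837 by limma). Ns was higher there on 5 of 6 arrays and lower on replicate 5.

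The bromodomain gene gte102 was bright at each of its 4 spots, with a signal of 16.2 to 41.4 times background. On SAM 2.0 its highest spot, 5791, gave 0.38, 0.12, 0.75, 0.11, -0.53 and 0.11 with a mean of 0.16 ± 0.15 (adjusted p = 0.876 by limma), where ns was higher on all arrays but replicate 5. Its lowest spot, 3093, gave -0.20, -0.39, -0.19, 0.23, -0.17 and -0.37 with a mean of -0.18 ± 0.13 (adjusted p = 0.827 by limma), where ns was lower on all arrays but replicate 4. The 2 spots of 1 gene on the same arrays thus leaned in opposite directions, and neither passed the test.

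The remaining SAM 2.0 spot of gte102, 6660, lists the same cDNA as its SAM 3.0 spot, 6468. The former gave 0.29, -0.002, 0.34, 0.15, -0.35 and 0.068 with a mean of 0.084 ± 0.14, and the latter 0.035, 0.025, 0.50, -0.043, -0.63 and -0.11 with a mean of -0.037 ± 0.11. Each had arrays on both sides of 0. A cDNA of mbd101 was likewise on both chips, at spot 10659 of SAM 2.0 with a mean of -0.005 ± 0.16 and at spot 10467 of SAM 3.0 with -0.057 ± 0.084. In both cases the 2 values differed by less than the SE of the SAM 2.0 spot.

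Genes with related roles but outside the rule were counted as a comparison: histone methyltransferases and acetyltransferases, deacetylases, histones and assembly factors, Polycomb genes and the small RNA pathway. Of their 178 spots from 34 genes, 85 were higher and 93 lower in ns, with a median of -0.0068 against 0.0091 for the members, and 0 passed the adjusted threshold. At an unadjusted p under 0.05 there were 4 of 89 spots on SAM 1.1, 2 of 29 on SAM 2.0 and 3 of 60 on SAM 3.0, close to the 5.18%, 6.48% and 5.19% of all spots, so the 9 spots are named as a description only. The 3 higher ones were 1 spot each of sdg110 on SAM 1.1 (0.28 ± 0.11), and of sdg123 (0.34 ± 0.13) and hac108 (0.35 ± 0.16) on SAM 2.0. These carry the names of SET-domain methyltransferases and a histone acetyltransferase. Over all chips sdg110 was higher at 3 of 3 spots, sdg123 at 5 of 5 and hac108 at 3 of 3. These counts include the spot by which each gene was picked. On SAM 3.0 the 2 sdg110 spots were at 0.0055 and 0.021, and the 2 hac108 spots at 0.062 and 0.079. The sdg123 spots were at 0.066 and 0.14 there, at 0.19 on SAM 1.1, and the other SAM 2.0 spot at 0.22. On SAM 1.1 the lower ones were 1 spot of nfd101 (-0.25 ± 0.11), where 6 of its 9 spots were lower, 1 of hon101, a linker histone (-0.29 ± 0.11), where 2 of 3 were lower, and 1 of fie2, a Polycomb gene (-0.40 ± 0.15), where 2 of 2 were lower. Over all chips nfd101 was lower at 8 of 14 spots and fie2 at 4 of 5. The counts given for nfd101, hon101 and fie2 also include the spot by which each was picked. On SAM 3.0 they were 3 of 3 spots of nfd106, with -0.22, -0.27 and -0.33, and its other 10 spots, 9 on SAM 1.1 and 1 on SAM 2.0, were also lower but did not reach that p. The 3 nfd101 spots of SAM 3.0 had 2 higher and 1 lower, and the lower one, spot 15929 (cDNA DN224375), gave -0.22, 0.091, -0.22, 0.18, -0.17 and -0.35 with a mean of -0.12 ± 0.078 (adjusted p = 0.879 by limma). The study assigns the cDNA of this spot a predicted role in chromatin remodeling. It reports this gene, with 1 other of that role, as significantly differentially expressed in ns apices, and cites its qRT-PCR for both. For the other gene it also shows in situ hybridisation. The study selected genes by unadjusted p-value, some also by fold change, so its threshold differs from the adjusted p given here. The qRT-PCR and the in situ hybridisation were not part of the data used here. The spot was chosen for printing after its values were seen.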

How the data were processed

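The authors read spot and local background intensities of both dyes from scanned arrays with image software, and deposited them per array. The same files hold values on a natural log scale, which the authors made by background correction, LOWESS and median centring, and which served here as an alternative. Starting from the intensities, the background median was corrected by normexp (offset 50), ratios were normalised by loess (span 0.3), and channels were brought to a median of 0. The low, mid and high scans of a SAM 3.0 array were averaged to 1 array. A dye term and an ns term were fitted to the 6 arrays of a chip with limma 3.58.1 in R 4.3.3, with ns and nonmutant paired on the array as in the study's methods, with Benjamini-Hochberg adjustment over the spots of a chip. The procedure was also run on simulated data in which the noise was independent between spots and arrays. Array effects shared by many spots were not simulated, so the run does not cover them. Genes were named from the platform annotation and RefSeq's maize genes (assembly Zm-B73-REFERENCE-NAM-5.0), and 45411 of 49280 spots had no listed gene there and could not be searched. Array values are printed for every DNA methyltransferase spot, spots with an unadjusted p under 0.05, and the highest and lowest spot of the other families. Further values per array are given where a gene's chips or repeated cDNAs are compared, and were chosen after the values were seen. The members, the gene lists and this rule were chosen with earlier results of these data known. The number of arrays limits the precision, and no sequences were used here.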

Additional observations from a re-analysis of the deposited data

Results flagged for a closer look

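One array stood apart from the others at gte102 spot 3093 on SAM 2.0. With the dye effect removed, replicate 4 had a log2 ratio of ns over nonmutant of 0.23, against -0.17 for the nearest of the other arrays, and the gap was 0.626 of the whole range. Without it the mean of the spot was -0.29 in place of -0.18. Of 41 sets of 6 arrays looked at in this way, 1 was picked out, where chance picks about 2.05.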

How the results depend on the processing

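No member spot passed the adjusted threshold under any of the 16 other settings, and the lowest adjusted p among them was 0.241 by limma. Of the named spots, 18 of 240 values changed sign, all of them at spots of dmt101 and dmt105. dmt101 spot 1057 was -0.0088 with plain background subtraction, -0.0087 with the authors' values and -0.019 with the mean of the local background, a setting chosen after seeing the data. On SAM 3.0 with the mid scan alone, dmt105 spot 3326 was -0.095 and dmt101 spot 12777 was -0.0019, and the latter was -0.061 with the high scan alone. Leaving out 1 replicate gave -0.12 to 0.32 for dmt101 spot 463, -0.023 to 0.056 for 1057, -0.12 to 0.0069 for 4654 and -0.038 to 0.063 for 12777, and for dmt105 -0.11 to 0.12 at spot 3326 and -0.045 to 0.17 at 4940. The members' median moved by less than the spread of the arrays in 42 of 42 cases. The methods' t-test and the fit without the pairing on the array reuse the same means. Neither the sign of a spot nor the members' median could change under these settings, and both counts include them. Leaving out dim spots likewise keeps the value of each spot that remains.

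Over all spots, the calls on SAM 1.1 (2), SAM 2.0 (5) and SAM 3.0 (2) fell to 1, 2 and 0 with plain subtraction and to 0, 0 and 0 with the authors' values and with the methods' t-test. Without the replicate block, that is without the pairing on the array, they were 0, 3 and 0. They were 0 with the low, mid or high scan of SAM 3.0 alone, and 1 on SAM 1.1 with the mean of the local background. Leaving out 1 replicate gave 1 to 405 calls on SAM 1.1, with 405 without replicate 1, 3 to 9 on SAM 2.0 and 0 to 1 on SAM 3.0, and the cause was not tested. Leaving out dim spots removed 10 member spots, mbd106 spot 341 and dmt101 spot 8058 among them, which then have no value.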
